A study of Mus musculus with 6 samples.

Results

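Lysosomal hydrolases and membrane proteins were followed on 6 Affymetrix expression arrays of mPAC L20, a cell line from mouse pancreatic ducts. The set was a list of 38 genes, chosen with earlier results of these data known. Each was represented by the probe set that names it alone and has the highest mean over the 6 arrays. 37 genes had such a probe set, out of 18193 genes measured in this way, and Cd63 had none. All cells were infected with an adenovirus that expresses Neurog3, which switches pancreatic progenitors to an endocrine fate. Hours earlier, 3 samples (shControl) had received an adenovirus with a scrambled hairpin and 3 (shAtoh8) an adenovirus whose hairpin targets Atoh8, a helix-loop-helix protein that binds DNA. The multiplicity of infection was 40 for each virus, and RNA was taken after a further 44 to 46 h of culture. Each of the 3 replicate numbers was an independent experiment on this 1 line, per the labels, and no array came from uninfected cells or from cells without Neurog3.

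Lysosomes are acidic organelles in which hydrolases break down proteins, glycans and lipids, membrane proteins protect the wall and export the products, and sorting receptors bring new enzymes from the Golgi. Many of these genes share a promoter element that contains an E-box and is bound by Tfeb, Tfe3 and Mitf, basic helix-loop-helix leucine zipper factors that raise lysosomal gene expression together. In pancreatic cells lysosomes also degrade secretory granules and zymogens.

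The core of that shared element, CACGTG, was searched, with a middle form, TCACGTGA, and a longest form, which is the middle form with G before it and C after it. All of them are palindromes, so both strands were read at once, and each longer form contains the shorter. Promoters were RefSeq windows from 250 bases before to 50 bases after an annotated start (GRCm38.p6). They were found for 34 of the 37 measured genes, the others being Ctsb, M6pr and Npc1. The promoter of Mfsd1, a lysosomal membrane transporter and the gene of the set with the largest difference on the arrays, is shown in full, with the motifs in capitals (chr3:67582518-67582817, plus strand).
Mfsd1: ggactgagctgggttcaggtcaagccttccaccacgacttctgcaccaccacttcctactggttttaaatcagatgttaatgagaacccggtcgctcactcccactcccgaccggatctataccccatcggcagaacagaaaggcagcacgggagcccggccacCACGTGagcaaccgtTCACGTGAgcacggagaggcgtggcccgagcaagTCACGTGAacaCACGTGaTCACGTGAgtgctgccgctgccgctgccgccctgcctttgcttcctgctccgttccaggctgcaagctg
It held 5 copies of the core, beginning 86, 70, 36, 26 and 18 bases upstream of the start, and 3 of them lay in the middle form. Of 27025 genes with a promoter in the table, 3 held as many as 5 copies (0.0111%). The other genes of the set with the middle or the longest form are shown as the stretch around it, together with Lamp1, which held 4 copies of the core, and Lgmn, the gene with the lowest fold change of the set. Cln3 is at chr7:126583337-126583372 (minus strand), Ctsa at chr2:164833746-164833798 (plus), Ctsd at chr7:142387905-142387940 (minus), Gla at chrX:134601179-134601247 (minus), Lamp1 at chr8:13159086-13159165 (plus) and Lgmn at chr12:102439122-102439155 (minus).
Cln3: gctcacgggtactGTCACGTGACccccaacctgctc
Ctsa: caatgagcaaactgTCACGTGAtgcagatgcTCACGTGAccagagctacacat
Ctsd: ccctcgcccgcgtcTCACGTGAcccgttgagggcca
Gla: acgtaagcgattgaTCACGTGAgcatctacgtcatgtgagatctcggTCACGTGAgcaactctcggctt
Lamp1: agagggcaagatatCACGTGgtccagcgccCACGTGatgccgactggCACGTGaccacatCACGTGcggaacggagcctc
Lgmn: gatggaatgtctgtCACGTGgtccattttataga
The promoter of Ctns, the lysosomal cystine exporter, held none of these forms and is shown for contrast (chr11:73198970-73199269, minus strand, the more downstream of its pair of overlapping windows).
Ctns: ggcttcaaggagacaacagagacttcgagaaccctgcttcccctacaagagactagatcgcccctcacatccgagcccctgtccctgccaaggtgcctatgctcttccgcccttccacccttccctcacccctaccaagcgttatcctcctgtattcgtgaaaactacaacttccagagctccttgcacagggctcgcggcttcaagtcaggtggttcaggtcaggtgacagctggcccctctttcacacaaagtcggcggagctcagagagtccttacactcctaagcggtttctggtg
In all, 13 of the 34 genes held the core (38.2%), against 8.09% of all genes in the table. A gene counted when any of its windows held the form, and Cln3, Ctsa and Lgmn each also had a window with none. The middle form was in 5 (14.7%, against 1.12%) and the longest form in Cln3 alone (2.94%, against 0.37%). Many basic helix-loop-helix factors bind the core, and a match is a description of the sequence, not a bound site. No binding was measured here.

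On the arrays the set lay slightly higher in shAtoh8, with 1 gene far above the rest. Of the 37 genes 30 had a positive log2 fold change (shAtoh8 minus shControl) and 7 a negative one (81.1% positive, against 53.1% of all 18193 genes), with a median of 0.16, against 0.01 over all genes. The test was limma, with p-values adjusted over 45037 probe sets and a threshold of 0.05. By it 1 gene rose, Mfsd1, and 0 fell, where the shares over all genes were 0.517% higher and 0.638% lower (1.15% in all, 210 genes). At an unadjusted limma p under 0.05 the set had 16 genes higher and 0 lower, where 8.72% and 8.82% of all genes passed in those directions. The 3 shAtoh8 arrays lay above the 3 shControl arrays for 17 genes and below for 2 (Lgmn and Arsa), against 12.6% and 11.4% of all genes. The set was brighter than its background, with a median log2 signal of 10.28 against 6.84 over all genes. The shares over all genes were not matched for brightness, and the set was not chosen independently of these data. The arrays measure a population, so a change in all cells and a change in some of them cannot be told apart.

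**Figure D1:**
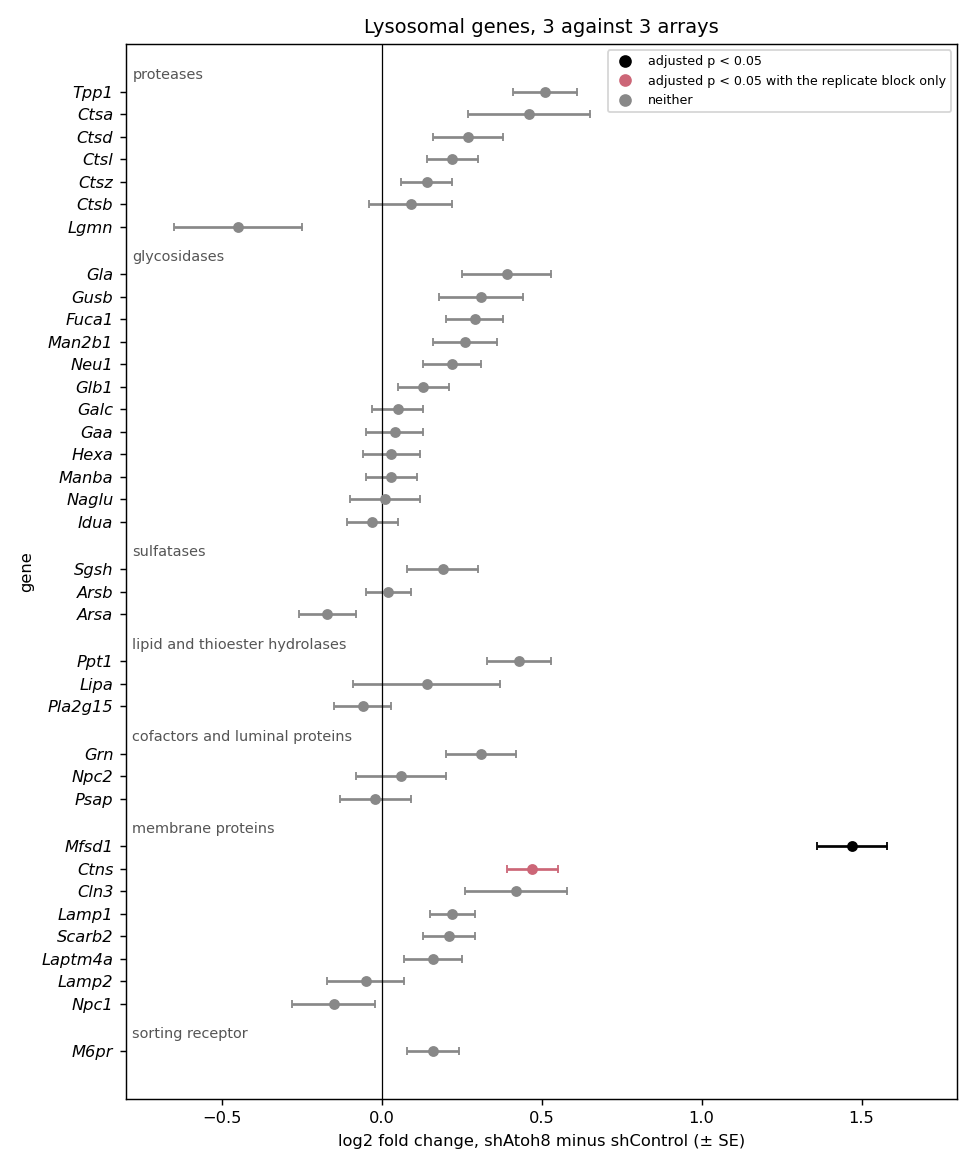
Log2 fold change (shAtoh8 minus shControl, horizontal axis) of each of the 37 genes with limma's standard error, 3 arrays against 3, grouped by role. Mfsd1 stands at 1.47, while the other 36 genes lie between -0.45 and 0.51.

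Mfsd1 gave a log2 signal of 8.94, 8.84 and 8.58 with the scrambled hairpin (replicates 1, 2 and 3) and of 10.28, 10.21 and 10.29 with the Atoh8 hairpin. The groups were far apart, and the shAtoh8 arrays lay close together. Group means were 8.79 ± 0.19 in shControl and 10.26 ± 0.05 in shAtoh8 (SD, n = 3), so the log2 fold change was 1.47 ± 0.11 (SE), which is 2.77-fold (limma adjusted p = 0.0104). Its other probe sets gave 1.48 ± 0.15 and 1.34 ± 0.17 and also passed (limma adjusted p = 0.0180 and 0.0316). The fold change stayed between 1.35 and 1.55 in every alternative run, but the call needed most arrays: without shControl replicate 1, shControl replicate 2 or shAtoh8 replicate 1 the limma adjusted p was 0.0566, 0.0784 and 0.0520. With the replicate number as a block, and both arrays of replicate 1 or of replicate 3 left out, it was 0.105 and 0.103.

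Among the other membrane proteins, Ctns, which exports cystine from the lysosome, read 6.87, 6.85 and 6.70 in shControl and 7.32, 7.23 and 7.28 in shAtoh8. These groups did not overlap either. The log2 fold change was 0.47 ± 0.08 (1.38-fold), which missed the threshold (limma adjusted p = 0.0594) and passed with the replicate number as a block (0.0463), where the arrays are compared within each experiment. With that block 2 genes of the set rose (Mfsd1 and Ctns) and 0 fell, where 1.92% of all genes rose and 2.75% fell (4.67% in all). The call of Ctns with the block was lost without replicate 1, 2 or 3 (adjusted p = 0.184, 0.0528 and 0.23). Cln3, the membrane protein lost in juvenile Batten disease, read 7.32, 7.12 and 6.88 against 7.31, 7.81 and 7.47. Its replicate 1 pair differed by -0.02, and replicates 2 and 3 by 0.68 and 0.59 (log2 fold change 0.42 ± 0.16, limma adjusted p = 0.302).

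The heavily glycosylated wall proteins were Lamp1 and Lamp2. Lamp1 read 12.16, 12.21 and 12.13 in shControl and 12.37, 12.38 and 12.41 in shAtoh8, with tight groups that did not overlap (0.22 ± 0.07, limma adjusted p = 0.243). Lamp2 read 11.56, 11.65 and 11.34 against 11.34, 11.65 and 11.41, with full overlap (-0.05 ± 0.12). The value of Lamp2 depends on the probe set: its other 3 sets gave 0.03, 0.28 and 0.35, and the mean of all 4 gave 0.15. The set at 0.35 ± 0.09 had groups apart (limma adjusted p = 0.134). Whether Lamp1 and Lamp2 differ from each other was not tested. Scarb2, the receptor that carries glucocerebrosidase to lysosomes, read 0.21 ± 0.08 higher with groups apart. Its other probe set, about as bright, gave 0.04 ± 0.11 with overlap, and the mean of both gave 0.12. Laptm4a read 0.16 ± 0.09 (0.09 without shAtoh8 replicate 1). Npc1, which moves cholesterol out of the lysosome, read -0.15 ± 0.13, and between -0.28 and -0.03 with 1 array left out. Its luminal partner Npc2 read 0.06 ± 0.14.

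**Figure D2:**
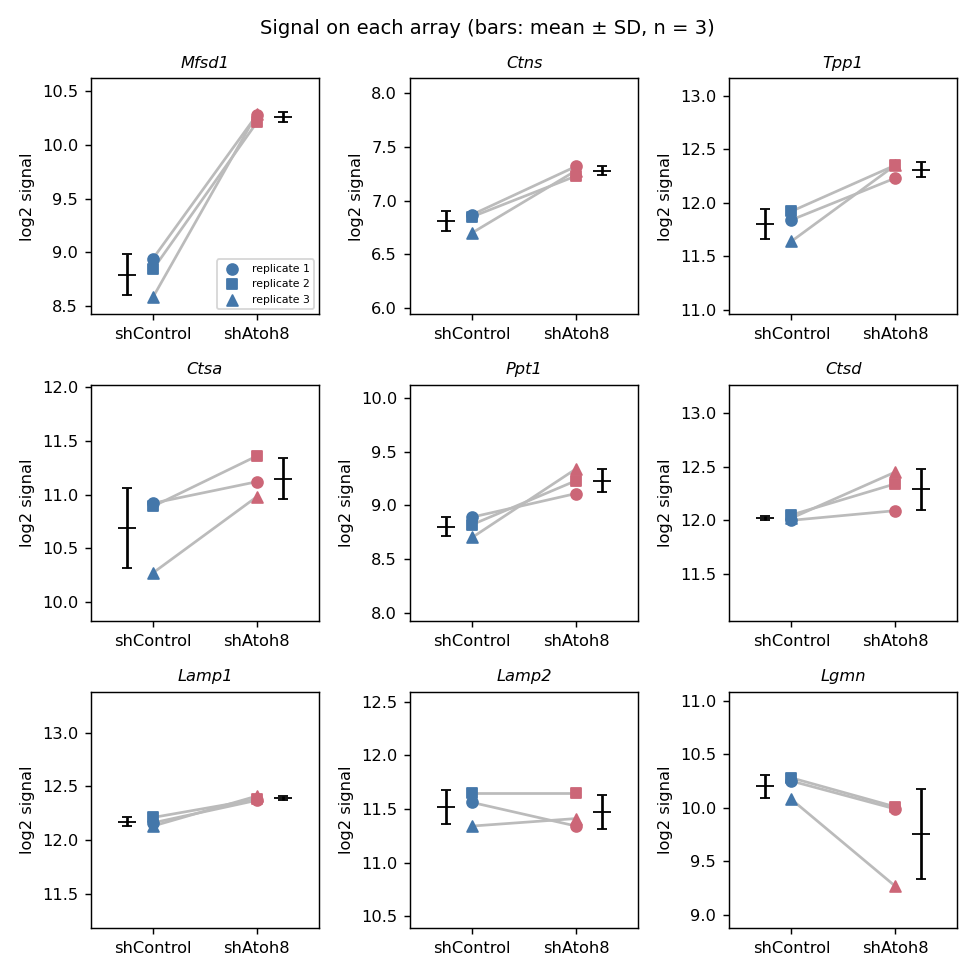
Log2 signal (vertical axis) of 9 genes on each array, shControl left and shAtoh8 right, with lines joining arrays of the same replicate number and bars for mean ± SD (n = 3); every panel spans the same range. Mfsd1 moves from about 8.79 to 10.26, Lamp2 shows full overlap on the probe set used and Lgmn lies lower in shAtoh8.

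None of the 7 proteases passed over all probe sets (0 by limma, 4 at an unadjusted p under 0.05, all higher), and 6 had a positive value. Tpp1, the tripeptidyl peptidase lost in a form of Batten disease, came closest. It read 11.84, 11.92 and 11.64 in shControl and 12.23, 12.35 and 12.35 in shAtoh8, and no shAtoh8 array was as low as a control. The log2 fold change was 0.51 ± 0.10 (1.42-fold, limma adjusted p = 0.0723, and 0.0512 with the block). Its other probe set gave 0.57 ± 0.10 and passed with the block alone (0.0595 and 0.0463).

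Ctsa, the carboxypeptidase that also protects Neu1 and Glb1 in a complex, read 10.92, 10.89 and 10.27 against 11.12, 11.36 and 10.98. The groups were apart, but shControl replicate 3 lay well below the other control arrays (0.46 ± 0.19, limma adjusted p = 0.348), and the fold change was 0.25 without it. Ctsd, the main aspartic protease, read 12.00, 12.05 and 12.02 against 12.09, 12.34 and 12.45. Its replicate 1 pair differed by 0.09 and the others by 0.30 and 0.43 (0.27 ± 0.11, limma adjusted p = 0.320). The cysteine cathepsins had smaller values, at 0.22 ± 0.08 for Ctsl, 0.14 ± 0.08 for Ctsz and 0.09 ± 0.13 for Ctsb.

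Lgmn, the asparaginyl endopeptidase that processes several cathepsins, went the other way. It read 10.25, 10.28 and 10.08 in shControl and 9.99, 10.01 and 9.27 in shAtoh8, lower in all 3 pairs. The value was -0.45 ± 0.20 (limma adjusted p = 0.388), and without shAtoh8 replicate 3, its lowest array, it was -0.20.

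Of the 12 glycosidases 11 had a positive value, with a median of 0.09, and none passed (0 by limma or with the block, 5 at an unadjusted limma p under 0.05, all higher). Those 5 were Gla, Gusb, Fuca1, Man2b1 and Neu1, which cut galactose, glucuronate, fucose, mannose and sialic acid from glycans. Their log2 fold changes were 0.39 ± 0.14, 0.31 ± 0.13, 0.29 ± 0.09, 0.26 ± 0.10 and 0.22 ± 0.09, and in each the groups did not overlap. Without shAtoh8 replicate 3 the values of Gla and Gusb were 0.23 and 0.19. A dimmer probe set of Man2b1 gave 0.43 ± 0.11 and passed with the block (adjusted p = 0.0484). That of Gusb gave 0.13 ± 0.22 with overlap, and the mean of its sets gave 0.22. The other sets of Fuca1 gave 0.07 to 0.32, those of Gla 0.08 and 0.43, and those of Neu1 0.23 and 0.39. Glb1, the beta-galactosidase, read 0.13 ± 0.08. The other 6 (Galc, Gaa, Hexa, Manba, Naglu and Idua) lay between -0.03 and 0.05. The probe set of Hexa had a mean of 4.20, under the array medians of 5.49 to 5.56, so little can be read from it.

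The sulfatases had no common direction: Sgsh, which acts on heparan sulfate, read 0.19 ± 0.11 (0.10 without shAtoh8 replicate 3), Arsb 0.02 ± 0.07 and Arsa, which acts on sulfatide, -0.17 ± 0.09. Arsa was lower in all 3 pairs. Among lipid and thioester hydrolases Ppt1, which removes palmitate from proteins, read 8.89, 8.82 and 8.70 in shControl and 9.11, 9.23 and 9.34 in shAtoh8, again with groups apart. Its value was 0.43 ± 0.10 (limma adjusted p = 0.0981). Of its other 4 probe sets the brightest gave 0.41, 1 gave 0.28, and the pair of dimmest sets gave -0.10 and 0.09. The acid lipase Lipa varied more within groups (10.90, 10.65 and 10.09 against 10.67, 11.00 and 10.39) than between them (0.14 ± 0.23, and -0.09 to 0.32 with 1 array left out). The phospholipase Pla2g15 read -0.06 ± 0.09.

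Grn, the precursor of granulins, read 11.41, 11.58 and 11.28 against 11.65, 11.88 and 11.67 (0.31 ± 0.11, limma adjusted p = 0.253), and its 3 probe sets gave similar values (0.27 to 0.31). Psap, which gives the saposin cofactors of sphingolipid hydrolases, read -0.02 ± 0.11. M6pr, a mannose phosphate receptor that sorts hydrolases from the Golgi, read 0.16 ± 0.08 with groups apart.

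Of the 37 genes 26 had several probe sets. All sets of a gene had the same sign for 18 and differed in sign for 8. Over the 83 probe sets of the set 64 were positive, 3 passed limma (all of Mfsd1) and 6 passed with the block, where 0.802% and 3.42% of all 45037 probe sets passed. Averaging all sets of a gene gave lower values than the brightest set for Ctsa (0.26), Cln3 (0.23), Ppt1 (0.22), Fuca1 (0.19) and Ctsl (0.13).

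**Figure D3:**
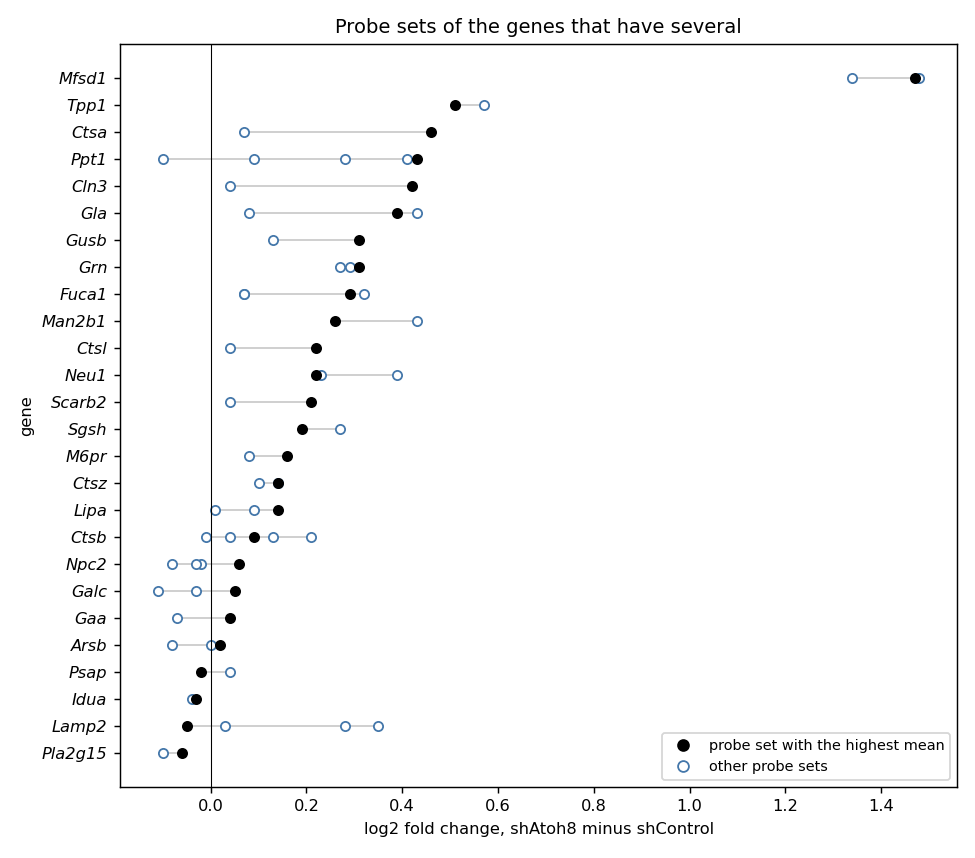
Log2 fold change (shAtoh8 minus shControl, horizontal axis) of every probe set of the 26 genes that have several; filled points are the sets used here and open points the others. The 3 sets of Mfsd1 lie between 1.34 and 1.48, and those of Lamp2 and Ppt1 spread across 0.

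Within replicate numbers the medians over the 37 genes were 0.08, 0.15 and 0.23 for replicates 1, 2 and 3, against -0.01, 0.00 and 0.03 over all genes. In these pairs 28, 30 and 27 of the genes were higher in shAtoh8 (75.7%, 81.1% and 73%, against 48.6%, 50.7% and 55.1% of all genes). In all 3 pairs 21 genes were higher (56.8%, against 24% of all genes) and 3 were lower (8.11%, against 21.5%), namely Lgmn, Arsa and Pla2g15. The mean over the 37 genes was 9.91 to 9.97 on the shControl arrays and 10.09 to 10.18 on the shAtoh8 arrays, so the groups were apart. Mfsd1 differed by 1.34, 1.36 and 1.71 in the pairs.

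**Figure D4:**
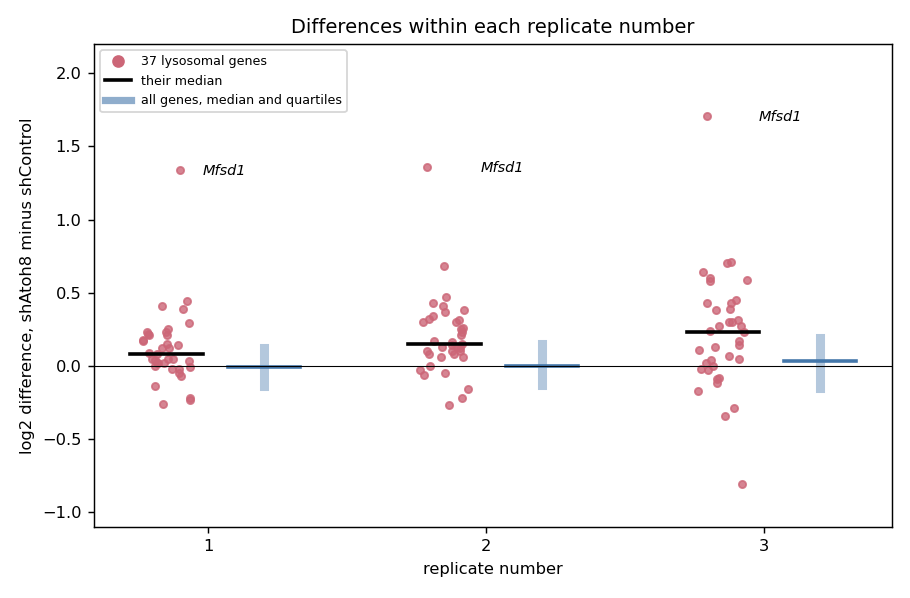
Log2 difference (shAtoh8 minus shControl, vertical axis) of the 37 genes within each replicate number, with their median (black) and the median and quartiles of all 18193 genes (blue; horizontal jitter has no meaning). The medians of the 37 genes are 0.08, 0.15 and 0.23, and Mfsd1 is the highest point in each pair.

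The fold changes were also set beside the promoter motifs, as a description. The 13 genes with the core had a median log2 fold change of 0.22 (11 positive, from -0.45 to 1.47) and the 21 without it a median of 0.14 (17 positive, from -0.06 to 0.51). The 5 genes with the middle form, Mfsd1, Ctsa, Cln3, Gla and Ctsd, were all positive, from 0.27 to 1.47. Over the whole set 30 of the 37 genes were positive (81.1%). Holding the core did not go with one direction: Lgmn and Arsa hold 1 copy each (Lgmn in only 1 of its windows), and Lamp1 with 4 copies read 0.22. Ctns, Tpp1 and Ppt1, among the highest values, hold none in these windows.

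**Figure D5:**
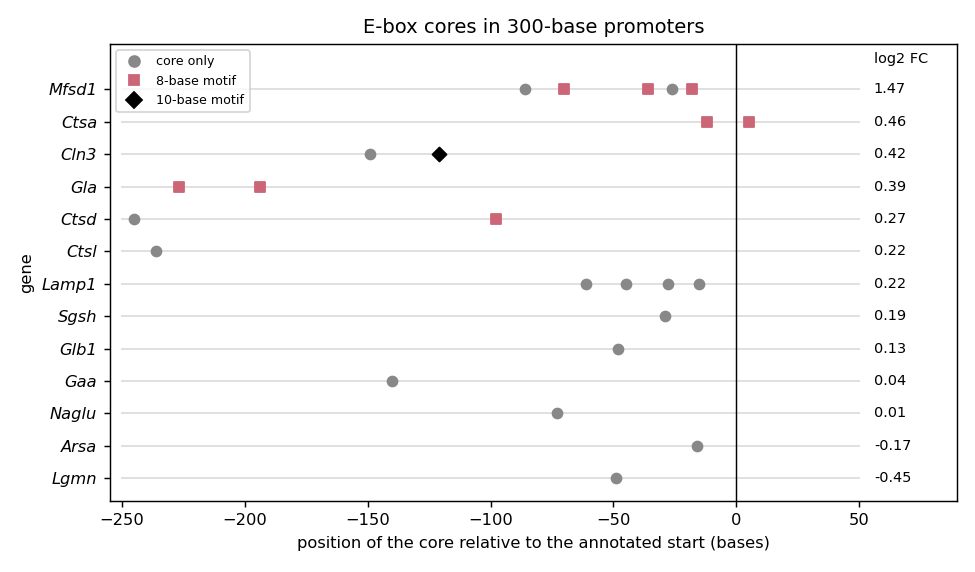
Position of each E-box core relative to the annotated start (horizontal axis, bases) in the promoters of the 13 genes that hold one, ordered by log2 fold change (numbers at the right). Mfsd1 has 5 copies close to the start and Lamp1 has 4, while the gene at the foot, Lgmn, has 1.

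Other lysosomal genes were taken from a list of 64 further symbols, also written with earlier results of these data known. Of these 53 were measured, of which 40 had a positive value (75.5%, against 53.1% of all genes) with a median of 0.12. By limma 2 rose (Asah1 and Ostm1) and 0 fell, where 0.517% of all genes rose and 0.638% fell. At an unadjusted limma p under 0.05 the list had 16 higher and 2 lower, where 8.72% and 8.82% of all genes passed. In all 3 pairs 24 were higher (45.3%, against 24% of all genes) and 9 lower (17%, against 21.5%). Asah1, the acid ceramidase, read 9.94, 9.84 and 9.72 in shControl and 11.15, 11.31 and 11.34 in shAtoh8, well apart, a log2 fold change of 1.43 ± 0.10 (limma adjusted p = 0.0104). Ostm1, the accessory subunit of the chloride transporter Clcn7, read 9.21, 9.12 and 9.18 against 10.09, 10.26 and 10.23 (1.03 ± 0.08, limma adjusted p = 0.0104). Clcn7 itself read 0.24 ± 0.08 (limma adjusted p = 0.235). Glmp, the accessory subunit of Mfsd1, read 0.32 ± 0.10 (limma adjusted p = 0.199). Whether either transporter differs from its subunit in size of change was not tested. With the block Sumf1, the enzyme that activates sulfatases, also rose (0.52, adjusted p = 0.0486) and the carboxypeptidase Prcp fell (-0.52, adjusted p = 0.0384). Over all genes 1.92% rose and 2.75% fell with the block. The calls of Asah1 and Ostm1 were lost without shControl replicate 1, shControl replicate 2 or shAtoh8 replicate 1, when 0 of the list passed limma. Under the block 0 passed without replicate 1 or without replicate 3, and without replicate 2 Sumf1 was lost. In this list 11 of 47 genes with a promoter held the core (23.4%, against 8.09%) and 9 the middle form (19.1%, against 1.12%).

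The target of the hairpin, Atoh8, read 8.75, 8.29 and 7.52 in shControl and 7.83, 7.90 and 7.37 in shAtoh8 (-0.49 ± 0.30, limma adjusted p = 0.573) and its groups overlapped. Its pairs differed by -0.92, -0.39 and -0.15, and it did not pass with the block (adjusted p = 0.157). Neurog3, which all cells received, read 7.45, 6.64 and 5.79 against 6.78, 6.06 and 5.33. Its groups overlapped (-0.57 ± 0.48, limma adjusted p = 0.706), but it was lower in all 3 pairs, by -0.67, -0.58 and -0.46, and fell with the block (adjusted p = 0.0330). Whether its probe sets read the viral copy was not analysed here.

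Most duct markers were high on all arrays. Epcam, an epithelial adhesion protein, was less so (mean 7.68, where the median over all genes was 6.84). The mean of the 7 measured was 11.55 to 11.64 in shControl and 11.35 to 11.47 in shAtoh8, with groups apart. Of these 7, 5 were lower in all 3 pairs (71.4%, against 21.5% of all genes). Epcam had the lowest value, -0.73 ± 0.19 (limma adjusted p = 0.145), and fell with the block (adjusted p = 0.0463). Krt7 read -0.25 and Cdh1 -0.14, while Krt8, Krt18, Krt19 and Sox9 lay between -0.07 and 0.06. Among 7 islet markers Iapp, the islet amyloid peptide, fell with the block (-1.78 ± 0.39, limma adjusted p = 0.0965, and 0.0189 with the block) and Pcsk1, a prohormone convertase, rose with it (0.76 ± 0.18, limma adjusted p = 0.114, and 0.0193 with the block). The acinar protease Cela1 read 0.37 ± 0.14 with groups apart (limma adjusted p = 0.291). Another acinar marker, Cel, read -0.18 ± 0.10, also with groups apart (limma adjusted p = 0.538). The acinar markers Cpa1, Cpb1 and Ptf1a were dim, with means of 4.36, 4.17 and 3.95. Means of 5 acinar, 7 islet, 7 fibroblast and 6 endothelial markers lay between 4.12 and 5.92. The mean of 8 macrophage markers, a cell type rich in lysosomes, was 5.97 to 6.01 in shControl and 6.03 in each shAtoh8 array. Of these 8 only Lyz2, itself a lysosomal enzyme, rose (0.75, limma adjusted p = 0.0499), while Ptprc stayed between 3.52 and 3.81. By sign 4 of the 8 were positive and 4 negative. Cd14, by far the brightest (mean 11.52), and Cd68 each read -0.36 and were lower in all 3 pairs. Neither passed (limma adjusted p = 0.426 and 0.622). On the shAtoh8 replicate 2 array the hybridisation spikes were weaker (9.89, the others 10.24 to 10.48), the actin signal fell off more towards the 5′ end (0.354, the others 0.107 to 0.202) and the mean over the 37 genes was the highest. The part of these arrays' differences, of Neurog3 and of the duct, islet, acinar and macrophage markers in the result was not tested. Without the shAtoh8 replicate 2 array 27 of the 37 genes were positive, with a median of 0.19.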

How the data were processed

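Expression was measured on 6 Affymetrix arrays, 3 per hairpin. The authors deposited a log2 signal for each probe set, made with RMA in the affy package (no version given), per the submitters' processing notes. RMA puts the arrays on a common distribution, so a shift of most genes would have been removed. Of 45101 probe sets, 64 controls were left out. The platform annotation gave 34945 of the other 45037 probe sets 1 gene symbol, 932 several and 9160 none; only the first kind names a gene.

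The comparison was fitted to all 45037 probe sets (R 4.3.3, limma 3.58.1, functions lmFit and eBayes, two-sided, Benjamini-Hochberg, threshold 0.05), which was tested on simulated data. Errors of fold changes are moderated standard errors. The number of arrays limits the precision. Genes described with all their values were those past the threshold with or without the block, Ctsd, Lamp1, Lamp2 and the extremes of the rest; Cln3, Grn, Lipa, Clcn7, Glmp, Lyz2, Epcam, Iapp, Pcsk1, Cela1 and the printed promoters beyond that of Mfsd1 were chosen after their values were seen. The genes and lists were chosen with earlier results of these data known.

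Replicate numbers mark independent experiments, per the labels. Deviations from the group means correlated at 0.407, 0.187 and 0.433 between arrays of the same number, and at -0.351 to 0.0292 otherwise. Deviations within a group cancel out, so these correlations are not independent of each other. The numbers were taken to pair the arrays in the fit with the block and in the differences within replicate numbers. The main fit did not use them. Alternatives covered the block, normalization, centring, a brightness filter, the variance model, array weights, the choice of probe sets, thresholds and arrays left out.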

Additional observations from a re-analysis of the deposited data

How the results depend on the processing

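The 37 genes kept a positive median under each alternative run (0.13 to 0.19), with 27 to 31 positive; the count of positive genes was added after the data were seen. The count that rose was 1 in the main analysis. It was 2 with the replicate block, without dim probe sets, with the trend and robust variance model and with array weights, 3 with the mean of probe sets, and 4 and 0 at thresholds of 0.1 and 0.01. With 1 array left out it was 0 to 1, and with both arrays of a replicate number left out under the block 0 to 1. Of the other lysosomal genes 4 passed with the block and with the mean of probe sets, 5 and 0 at thresholds of 0.1 and 0.01, 0 to 2 with 1 array left out and 0 to 4 with a pair left out under the block. Over all genes the count of 210 became 849 with the block, 324 without dim probe sets, 339 with array weights, 459 with the mean of probe sets, 691 and 0 at thresholds of 0.1 and 0.01, 0 to 117 with 1 array left out and 0 to 966 with a pair left out under the block. The 4 genes at a threshold of 0.1 were Mfsd1, Ctns, Tpp1 and Ppt1. The causes were not tested.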
